A study of Homo sapiens with 3 samples.

Results

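Cancer-testis antigen genes were examined in K562 cells, an established human line from a chronic myelogenous leukaemia, whose RNA was sequenced after infection with retrovirus. A row of the gene tables was taken when its symbol begins with MAGEA, MAGEB, MAGEC, GAGE, XAGE, PAGE, SSX or CTAG followed by a digit, and PRAME was added. This matched 77 of 26334 rows. The antisense transcript MAGEA8-AS1, at 0 counts in every library, and SSX2IP, the gene of a protein that binds SSX2 but is no SSX gene, were set apart, and near-identical copies were summed. The remaining 75 rows then made 47 members. There were 3 libraries, 1 per construct. The control carried the pMYs-IG vector without insert, the EVI1-WT cells the same vector with 3xHA-EVI1-WT, and the EVI1+18 cells that vector with 3xHA-EVI1+18. The title of the series ties the last form to aberrant splicing, and the labels do not say what its number counts. Virus came from GP2-293 packaging cells. In all groups GFP-positive cells were sorted 3 days after infection and grown on, so the control also went through infection and sorting. The labels call the constructs stably expressed and overexpressed, and do not say how many integrations or clones the sorted cells held.

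Cancer-testis antigens are genes that are normally active in germ cells, mostly of the testis, and kept silent in other adult tissues in large part by methylation of their promoters. Tumours often switch some of them on again, and peptides of the proteins can then be recognised by T cells. Most of the families stand as clusters of recently duplicated genes on the X chromosome. PRAME lies apart on an autosome. The MAGE proteins bind RING-type ubiquitin ligases, the SSX proteins repress transcription, PRAME serves as a substrate receptor of a cullin ubiquitin ligase, and the GAGE, XAGE and PAGE proteins are small and largely disordered. EVI1 is a zinc finger transcription factor coded by MECOM, a gene rearranged in some myeloid leukaemias.

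The empty vector library held 17794438 counts, that of EVI1-WT 18439337 and that of EVI1+18 20772365. MECOM, the gene carried by the vectors, had 793, 1039 and 2012 counts in that order, so it was highest in the EVI1+18 library, and the amount of transcript and the form of EVI1 cannot be told apart. All 12 K562 markers were present in every library. Of 10 markers of HEK293-type packaging cells 5 were at 0 throughout, and the summed level was 843, 776 and 896 TPM, a unit that corrects for gene length and depth. Nearly all of that sum was KRT8 (494, 461 and 560.0 TPM) and KRT18 (348, 315 and 335), and the other markers were at or below 1.14 TPM. The lymphoid and mature myeloid markers summed to 12.4, 4.59 and 5.93 TPM, with ELANE at 0, and PTPRC, the leukocyte surface phosphatase CD45, had 568, 216 and 300 counts. PTPRC was thus lower in both EVI1 libraries, as several members below were, and its part in those results was not tested. Of 11 germ cell markers 9 were at 0 in every library and their summed level was at most 0.100 TPM, while the antigen genes described next were present.

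In these K562 cells PRAME and members of every family but CTAG averaged at least 50 counts over the 3 libraries. Of the CTAG family, CTAG2 was seen below that level, with 77, 7 and 1 counts. In 17 of 47 members the libraries averaged at least 50 counts, the level from which ratios are described. Each of those 17 had at least 100 counts in every library, so none entered through 1 library alone. Another 4 had a mean of 10 to 50 counts, 11 were seen below a mean of 10, and 15 had no count anywhere. All members together took 0.313%, 0.287% and 0.298% of the counts of the empty vector, EVI1-WT and EVI1+18 libraries. PRAME alone made up 45.2%, 45.1% and 49.5% of the summed TPM of the members.

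**Figure D1:**
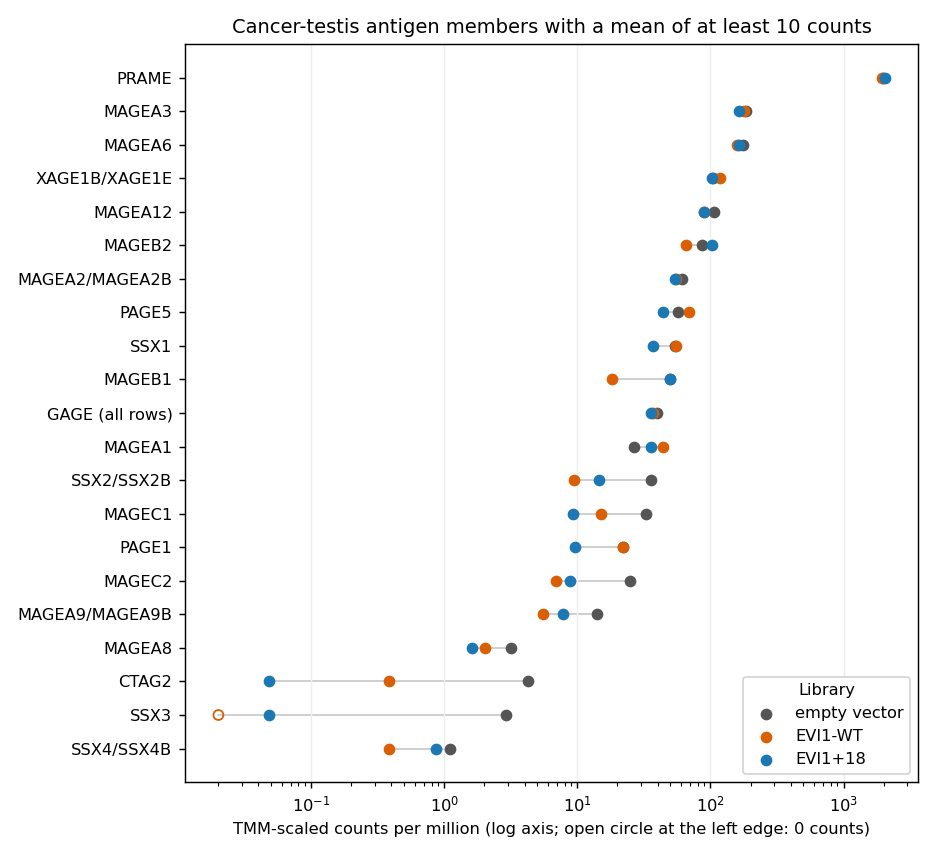
TMM-scaled CPM, counts relative to the library total, of the 21 members that average at least 10 counts, on a log axis, with 1 point per library; an open circle marks 0 counts. PRAME and the MAGEA3, MAGEA6 and MAGEA12 points of the 3 libraries lie close together, while those of CTAG2 and SSX3 lie far apart, with the empty vector highest. CTAG2 and SSX3 average at least 10 counts only through the empty vector library, so that order was fixed by the limit.

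Between libraries, part of the set was lower with EVI1 and none was higher than 2-fold over the empty vector. Ratios are of counts scaled by library size, each followed by its exact 95% counting interval, and a member is counted as higher or lower at 2-fold. With EVI1-WT, 5 of the 17 members were lower, namely MAGEA9/MAGEA9B, MAGEB1, MAGEC1, MAGEC2 and SSX2/SSX2B, and 0 were higher. That is 29.4% of the members, against 1.70% of all 10403 genes averaging at least 50 counts that were lower and 0.702% that were higher. With EVI1+18, MAGEC1, MAGEC2, PAGE1 and SSX2/SSX2B were lower, 4 of 17 or 23.5%, and 0 were higher, where the shares over all genes were 0.827% lower and 1.01% higher. Of the 323 other described genes of the X chromosome, 12 or 3.72% were lower with EVI1-WT and 7 or 2.17% with EVI1+18. Near-identical relatives share reads and sequence, so the members are not independent of each other. Both comparisons use the same empty vector library, so a deviation of that library would enter both. With 1 library per construct no test was possible, and the intervals cover counting error only. In bulk RNA, fewer cells that express a gene and less of its RNA per cell cannot be told apart.

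The set as a whole moved little. The median log2 ratio of the 17 members was -0.14 with EVI1-WT and -0.17 with EVI1+18, beside 0.01 and 0.00 over all described genes. With EVI1-WT 13 of 17 members were below a ratio of 1, beside 4931 of 10403 described genes, and with EVI1+18 14 of 17, beside 5205 of 10403. The summed counts of all members were 1.07-fold lower (1.05 to 1.08) with EVI1-WT and 1.03-fold lower (1.02 to 1.04) with EVI1+18. Without PRAME, which outweighs the others, they were 1.15-fold and 1.17-fold lower.

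**Figure D2:**
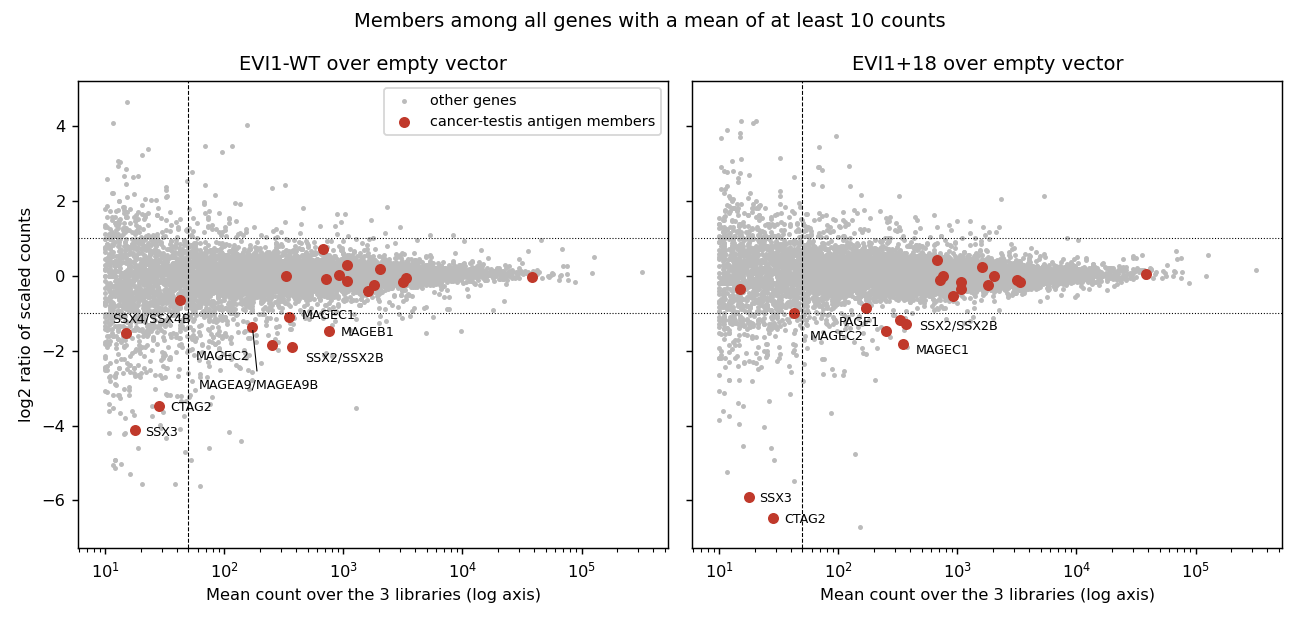
Log2 ratio of scaled counts against the mean count (log axis) for all genes averaging at least 10 counts, grey, and the members, red; dotted lines mark 2-fold, the dashed line a mean of 50 counts, and a count of 0 is set at 3 counts. MAGEC1, MAGEC2 and SSX2/SSX2B lie below the lower line in both panels, and no member lies above the upper line.

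Between the EVI1 libraries, MAGEB1 was the 1 member of 17 higher with EVI1+18 (0.952% of all described genes were) and PAGE1 the 1 lower (0.211% of all). The median log2 ratio was -0.03, beside -0.01 over all genes. Members therefore differed between the EVI1 libraries in both directions.

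The sequences just upstream of the start are shown for the members that differed and for MAGEB2 and MAGEA3, close relatives that stayed within 2-fold. They come from the RefSeq promoter table (build GRCh38.p14, 5′ to 3′ on the strand of the gene), 120 bases each that end 0 to 42 bases before the start, outside annotated exons (for MAGEB1 at its second listed start), and capitals mark each GGATGTG.

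MAGEC1 (chrX:141903774-141903893, plus strand): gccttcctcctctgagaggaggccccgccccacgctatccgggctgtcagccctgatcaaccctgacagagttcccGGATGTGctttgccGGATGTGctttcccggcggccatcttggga
MAGEC2 (chrX:142205291-142205410, minus strand): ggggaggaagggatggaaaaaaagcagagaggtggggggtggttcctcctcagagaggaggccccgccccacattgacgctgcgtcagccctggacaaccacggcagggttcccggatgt
SSX2 (chrX:52707228-52707347, minus strand): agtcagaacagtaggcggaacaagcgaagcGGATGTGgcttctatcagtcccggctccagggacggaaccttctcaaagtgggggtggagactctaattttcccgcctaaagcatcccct
MAGEB1 (chrX:30247026-30247145, plus strand): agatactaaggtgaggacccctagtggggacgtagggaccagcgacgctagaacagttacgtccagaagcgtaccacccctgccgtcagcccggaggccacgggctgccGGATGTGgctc
MAGEB2 (chrX:30215440-30215559, plus strand): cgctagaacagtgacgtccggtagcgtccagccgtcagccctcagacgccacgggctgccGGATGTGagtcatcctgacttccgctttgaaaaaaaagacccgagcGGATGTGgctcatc
PAGE1 (chrX:49695994-49696113, minus strand): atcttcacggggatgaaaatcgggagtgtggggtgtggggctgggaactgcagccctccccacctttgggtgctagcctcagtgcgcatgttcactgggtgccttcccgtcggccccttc
MAGEA9 (chrX:149781810-149781929, plus strand): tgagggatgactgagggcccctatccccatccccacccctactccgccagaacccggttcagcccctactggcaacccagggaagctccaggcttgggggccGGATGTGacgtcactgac
MAGEA3 (chrX:152698632-152698751, plus strand): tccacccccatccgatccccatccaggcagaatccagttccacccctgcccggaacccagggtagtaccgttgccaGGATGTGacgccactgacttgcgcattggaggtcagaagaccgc

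The letters GGATGTG were chosen after these sequences had been read, so their count among the members is a description only. In the 250 bases before any listed start, on either strand, 13 of 36 members with a RefSeq promoter held them, and 4.27% of 27305 genes did. The letters were present in members that were lower, such as MAGEC1 and SSX2, as well as in MAGEB2 and MAGEA3, which were not past 2-fold. They were not in this window of MAGEC2 or PAGE1. The MAGEC2 window, however, ends at the start with ggatgt, so its edge cuts the string before the last letter. Bases past the start were not counted. Duplicated relatives share much of their upstream sequence: all 250 bases were the same in MAGEA9 and MAGEA9B, and likewise in MAGEA3 and MAGEA6. Between MAGEC1 and MAGEC2, 61 of 250 were the same in place. That count allows no gaps, and the sequences shown for these genes share stretches at an offset that it misses.

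Short cores of known binding sites were counted in the same window on both strands. GATGAG, the core of the site of the second zinc finger domain of EVI1, stood in 5 of 36 members (MAGEB1, MAGEB2, MAGEA8, MAGEA4 and XAGE3) and in 12.3% of all genes. AGATAA, the core for the first domain, stood in 3 (PAGE1, MAGEB16 and MAGEB3) and in 11.1% of all genes. The ETS core CCGGAA was found in 5 members and in 17.2% of genes. A match is a string of letters and not a bound site. CpG dinucleotides, the sites of methylation, numbered a median of 10.0 before the start of the 16 members averaging at least 50 counts, 9.50 in 2 of 10 to 50 counts, 11.0 in 8 seen below 10, 4.50 in the 10 silent ones and 12.0 over all genes. No methylation was measured in these libraries.

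MAGEA genes code for the first described tumour antigens recognised by T cells, and MAGEA3 and MAGEA6 proteins drive the ligase TRIM28. MAGEA3 had 3329 counts with the empty vector, 3250 with EVI1-WT and 3399 with EVI1+18. MAGEA6, which shares most of its sequence with MAGEA3, had 3199, 2886 and 3410 counts. The members most abundant within the family were thus nearly level across libraries. In annotated transcripts, 56.5% of the 50-base windows of MAGEA3 also occur in another member gene, so its split from MAGEA6 is uncertain. Here and below, windows were compared among the member genes only. The sum of the pair was at 0.929 (0.897 to 0.962) with EVI1-WT and at 0.910 (0.880 to 0.942) with EVI1+18. MAGEA12 had 1940, 1640 and 1860 counts and was at 0.836 (0.782 to 0.893) and 0.837 (0.785 to 0.892). The MAGEA2 and MAGEA2B copies together had 1093, 1003 and 1114 counts, at 0.907 and 0.889.

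MAGEA1, the founding member of the family, went the other way. It had 482 counts with the empty vector, 799 with EVI1-WT and 735 with EVI1+18, so both EVI1 libraries were above the control. The ratio was 1.64 (1.46 to 1.84) with EVI1-WT and 1.33 (1.18 to 1.50) with EVI1+18, both short of 2-fold. MAGEA1 shares 0.662% of its windows with other member genes.

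MAGEA9 and MAGEA9B are copies that cannot be separated by most reads, since 94.0% of MAGEA9 windows are shared. The sum was 255 counts with the empty vector, 100 with EVI1-WT and 162 with EVI1+18. It was therefore highest in the control and lowest with EVI1-WT, 2.58-fold lower (2.04 to 3.28), while EVI1+18 was 1.80-fold lower (1.48 to 2.21). The deposited split gave MAGEA9 96, 100 and 162 counts and MAGEA9B 159, 0 and 0, so the lower sum stood entirely under MAGEA9B. MAGEA8 had 57, 37 and 33 counts, 1.56-fold lower (1.01 to 2.42) and 1.98-fold lower (1.27 to 3.14), with wide intervals at this depth. The whole MAGEA family summed to 653, 573 and 548 TPM.

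**Figure D3:**
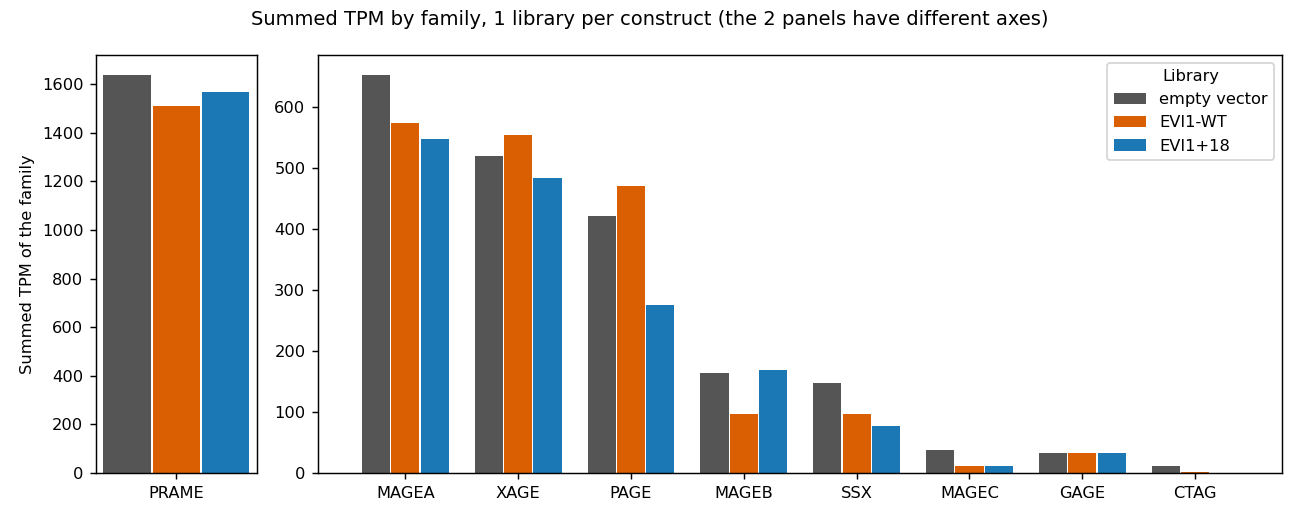
Summed TPM of each family in the 3 libraries, PRAME on an axis of its own; bars start at 0 and carry no error because each is 1 library. MAGEC is at 37.1 TPM with the empty vector and at 12.1 and 11.4 with EVI1-WT and EVI1+18, while GAGE lies between 32.5 and 33.3.

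The MAGEB genes stand together on the short arm of the X chromosome. MAGEB1 had 901 counts with the empty vector, 330 with EVI1-WT and 1023 with EVI1+18. It was low in the EVI1-WT library alone, 2.76-fold below the empty vector (2.43 to 3.14), and EVI1+18 was at 0.991 of the empty vector (0.905 to 1.08). Between the EVI1 libraries MAGEB1 was 2.74-fold higher with EVI1+18 (2.41 to 3.11). Its neighbour MAGEB2 had 1561, 1198 and 2113 counts, a smaller dip with EVI1-WT at 0.759 (0.703 to 0.819). MAGEB2 was at 1.18 with EVI1+18 (1.11 to 1.26) and at 1.56 between the EVI1 libraries (1.45 to 1.67). Both active MAGEB genes were thus lowest with EVI1-WT, and windows shared with other member genes made up 1.32% of MAGEB1 and 0% of MAGEB2. Among the other 8 MAGEB genes, 3 had scattered counts and 5 had none. The family summed to 163, 96.1 and 169 TPM.

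The MAGEC genes were lower in both EVI1 libraries. MAGEC1, known as CT7 from multiple myeloma, had 586 counts with the empty vector, 276 with EVI1-WT and 191 with EVI1+18. The control was the highest, and the ratios were 2.15-fold lower (1.86 to 2.49) and 3.52-fold lower (2.98 to 4.16). MAGEC2, which binds the ligase TRIM28, had 448, 125 and 183 counts. It was 3.63-fold lower with EVI1-WT (2.97 to 4.46) and 2.81-fold lower with EVI1+18 (2.36 to 3.35). The order of the EVI1 libraries differed between these neighbouring genes: EVI1+18 over EVI1-WT was 1.64-fold lower for MAGEC1 (1.36 to 1.98) and 1.29-fold higher for MAGEC2 (1.02 to 1.64). Windows shared with other member genes made up 0.335% of MAGEC1 and 0% of MAGEC2. MAGEC3 was at 0 in every library. Summed, the family was 2.61-fold lower with EVI1-WT (2.32 to 2.93) and 3.17-fold lower with EVI1+18 (2.81 to 3.58).

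**Figure D4:**
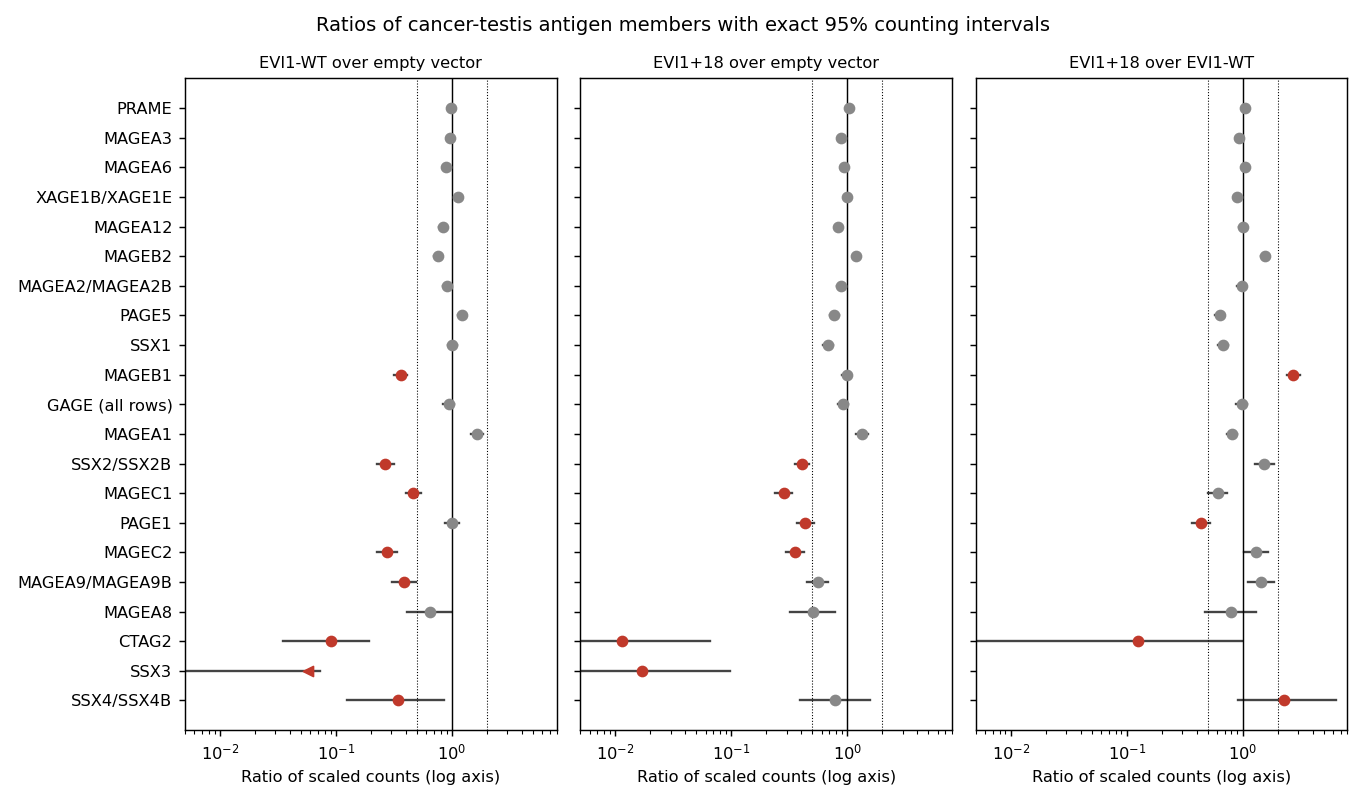
Ratio of scaled counts with its exact 95% counting interval for the 21 members that average at least 10 counts, in order of mean count on a log axis; red marks a ratio past 2-fold, dotted lines 2-fold, and the triangle a bound from a count of 0. MAGEC1 and MAGEC2 are red against the empty vector in both panels, and MAGEB1 lies on opposite sides of 1 in the first and last panels.

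SSX genes code for nuclear repressors, and SSX1, SSX2 and SSX4 are the members fused to SS18 in synovial sarcoma. SSX2 and SSX2B, whose transcripts cannot be told apart by most reads, had 642 counts with the empty vector, 173 with EVI1-WT and 300 with EVI1+18. They were 3.75-fold lower with EVI1-WT (3.17 to 4.47) and 2.45-fold lower with EVI1+18 (2.14 to 2.82). SSX1 had 981, 1000 and 769 counts, so it was level with EVI1-WT at 1.01 (0.922 to 1.10) and 1.46-fold lower with EVI1+18 (1.33 to 1.61). SSX1 and SSX2 thus differed from each other most in the EVI1-WT library.

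The less abundant SSX genes are known here from few counts. SSX3 had 52 counts with the empty vector, 0 with EVI1-WT and 1 with EVI1+18. With the 0 set at the floor of 3 counts it was 17.5-fold lower with EVI1-WT, and the counting interval reaches down to 13.8-fold. With EVI1+18, where the 1 count was not set at the floor, it was 59.6-fold lower (10.2 to 2399). The first value rests on the floor and the second on 1 count, so they give no order of the EVI1 libraries. Counts of 0 and 1 cannot be told apart at this depth. SSX4 and SSX4B had 20, 7 and 18 counts, 2.89-fold lower with EVI1-WT (1.17 to 8.09) and at 0.785 with EVI1+18 (0.392 to 1.56). SSX3 reached an average of 10 counts only through the empty vector library, so it had to be lower in the others. The family summed to 148, 96.6 and 77.4 TPM.

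PAGE, XAGE and GAGE genes code for related small acidic proteins. PAGE1 had 398 counts with the empty vector, 401 with EVI1-WT and 199 with EVI1+18. Only its EVI1+18 value stood apart, 2.29-fold below the empty vector (1.93 to 2.73) and 2.28-fold below EVI1-WT (1.92 to 2.72), while EVI1-WT was at 0.996 (0.865 to 1.15). PAGE5 had 1023, 1265 and 908 counts, at 1.22 (1.12 to 1.33) and 0.774 (0.707 to 0.848). PAGE5 was thus also lowest with EVI1+18, 1.58-fold below EVI1-WT (1.45 to 1.72). This order, lowest with EVI1+18, is the opposite of that of MAGEB1 and MAGEB2.

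XAGE1B and XAGE1E, which the deposited counts split evenly, had 1870, 2127 and 2133 counts together. They were at 1.12 with EVI1-WT (1.06 to 1.20) and at 0.995 with EVI1+18 (0.935 to 1.06). The 22 GAGE rows summed to 710, 672 and 744 counts, at 0.936 (0.841 to 1.04) and 0.914 (0.824 to 1.01). Nearly all of these stood under GAGE1, with 682, 635 and 697 counts, of whose windows 12.9% occur in other GAGE genes. GAGE8, which also had counts, was not among the transcripts compared. XAGE1 and the GAGE sum were therefore close to level, and by counts the latter is mostly a value of GAGE1. By TPM, which corrects for the longer GAGE1 row, GAGE1 held less of it: 22.8, 19.9 and 18.9 of 33.2, 33.3 and 32.5. By TPM, XAGE1 at 519 with the empty vector was second to PRAME among the members, and PAGE5 followed at 326.

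CTAG2, also called LAGE-1, is the close relative of CTAG1B, which codes for the vaccine antigen NY-ESO-1. It had 77 counts with the empty vector, 7 with EVI1-WT and 1 with EVI1+18. CTAG2 was 11.1-fold lower with EVI1-WT (5.15 to 28.6) and 88.2-fold lower with EVI1+18 (15.4 to 3530.3), and the wide intervals reflect the few counts left. Like SSX3 it reached a mean of 10 counts only through the empty vector library. CTAG1A and CTAG1B were at 0 in every library. CTAG2 and SSX3 had to be lower with EVI1 once such a mean was asked for, so neither is counted with the members described.

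PRAME, the most abundant member, was nearly constant. It had 36039 counts with the empty vector, 35549 with EVI1-WT and 42492 with EVI1+18, or 1640.0, 1511 and 1566 TPM. It ranked 90th, 96th and 92nd of all genes by TPM in those libraries. The ratio was 0.975 (0.961 to 0.990) with EVI1-WT and 1.03 (1.01 to 1.04) with EVI1+18. None of the 50-base windows of PRAME occurs in another member gene, and genes outside the members were not compared. The libraries in which MAGEC1, MAGEC2 and SSX2 were lower thus held PRAME at the level of the control.

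The members below a mean of 10 counts give no ratios. Those with at least 3 counts in a library were MAGEA4 with 6, 1 and 2 counts, MAGEA11 with 5, 0 and 0, MAGEB10 with 5, 2 and 5, PAGE2 and PAGE2B with 5, 8 and 2, and XAGE2 with 2, 4 and 2. MAGEA10, MAGEB16, MAGEB6, PAGE4, SSX6 and SSX8 had at most 2 counts in any library. Among members without a count in the empty vector library, MAGEB6 alone had any with EVI1, a single count with EVI1+18. The 15 members at 0 in every library were CTAG1A/CTAG1B, MAGEA5, the MAGEA10-MAGEA5 read-through, MAGEB3, MAGEB4, MAGEB5, MAGEB17, MAGEB18, MAGEC3, PAGE3, SSX5, SSX7, SSX9, XAGE3 and XAGE5. A count of 0 allows up to 3 counts, or 0.166, 0.164 and 0.145 CPM in the 3 libraries.

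The nearest described genes outside the members were read on each side of a member, by their order in RefSeq. No limit of distance was set and no distance was taken, so these genes can lie far off and do not show the local surroundings. For MAGEC1 and MAGEC2, FMR1 was at 1.10 with EVI1-WT and at 0.990 with EVI1+18. For MAGEB1 and MAGEB2, POLA1 was at 1.01 and 0.936 and GK at 1.16 and 1.07. These 3 flanking genes stayed within 1.16-fold of the empty vector. Around SSX2, MAGED1 was at 0.882 and 0.930 and FAM156A at 0.864 and 1.03, and around PAGE1, CCDC22 was at 0.901 and 1.07 and USP27X at 1.02 and 1.22. For CTAG2 the neighbours IKBKG and GAB3 stood at 0.859 and 1.04 with EVI1-WT. Some flanks were lower with EVI1-WT as well: TMEM185A by MAGEA9 was at 0.739, GABRE before MAGEA3 at 0.523, and PNMA6A before MAGEA1, a member that was higher, at 0.494.

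**Figure D5:**
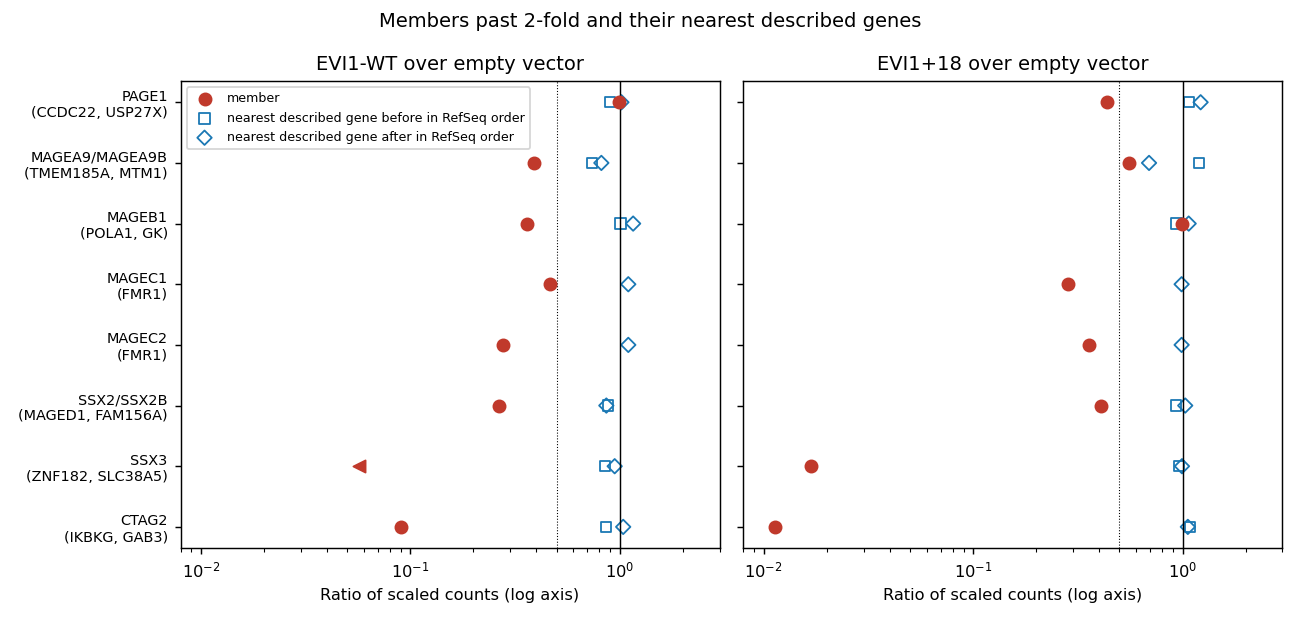
Ratio of scaled counts over the empty vector, on a log axis, for members past 2-fold in either comparison. SSX4/SSX4B, at 0.346 with EVI1-WT, is left out. CTAG2 and SSX3 average at least 10 counts only through the empty vector library, so their low ratios were fixed by that limit. Also shown is the nearest described gene on each side in RefSeq order, at any distance (on 1 side for MAGEC1 and MAGEC2). The triangle is a bound from a count of 0. The flanking genes shown for MAGEC1, MAGEC2 and SSX2/SSX2B lie between 0.864 and 1.10, to the right of the members.

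Genes that work on or with the members were compared as lists. Of 38 described repressors and methylation factors known for germ line genes, 0 were past 2-fold in any comparison, and since 0.211% to 1.70% of all described genes were in each direction, such a count is near the background. The median log2 ratio was 0.01 with EVI1-WT and -0.01 with EVI1+18. DNMT1, the maintenance methyltransferase, had 7547, 7485 and 8533 counts, at 0.980 (0.949 to 1.01) and 0.987 (0.956 to 1.02). TRIM28, a corepressor and a partner of MAGE proteins, had 10743, 10294 and 14013 counts, at 0.947 (0.922 to 0.973) and 1.14 (1.11 to 1.17). Smaller differences stood in the list, such as HDAC1, a deacetylase, at 1.26 (1.21 to 1.31) and 1.22 (1.17 to 1.27), and HELLS, a chromatin remodeller, at 0.798 with EVI1+18, both chosen after their values were seen. Of 21 described partners of the member proteins, 0 were past 2-fold, again near the background, with medians of 0.08 and 0.02. SS18 was at 1.07 and 0.904, and CUL2, the cullin used by PRAME, at 1.11 and 0.996. SSX2IP, set apart above, had 2223, 2529 and 2453 counts. The type II MAGE genes, which are active in normal tissues, had 0 of 5 past 2-fold, too few to set against those shares, and medians of 0.01 and -0.02. Among them MAGED1 had 666, 594 and 710 counts and MAGED2 599, 763 and 839.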

How the data were processed

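RNA of 3 K562 libraries, 1 per construct, was analysed, so no test was run. The deposited gene tables hold an expected count, TPM, FPKM and transcript length, per the file headers. The deposited expected counts share reads among transcripts, and were rounded to whole numbers; 3.09%, 3.02% and 3.06% were not whole (more than 0.001 off). TPM the authors scaled for length was used to compare levels between genes and as an alternative. Deposited FPKM entered no comparison. The build was hg19 and bcl2fastq was used, per the submitters' processing notes. Not given in the sources used here are aligner, counting tool, annotation and strand, so copies and overlapping genes are uncertain.

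Counts were scaled with TMM factors (1.01, 0.990 and 0.996 for empty vector, EVI1-WT and EVI1+18; edgeR 4.0.16, R 4.3.3). Ratios carry exact 95% Clopper-Pearson intervals conditional on the sum of both counts (scipy 1.17.1, Python 3.11.15). The code was run on simulated independent counts of genes averaging at least 50. That run cannot show how the intervals hold for fewer counts or for reads shared among copies. Without molecular identifiers reads are not independent molecules, so the intervals, and a floor of 3 counts set for a 0, cover counting error alone. Genes averaging at least 50 counts are described, and 2-fold is a fixed rule of size.

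Named are all members averaging at least 10 counts, those below with 3 counts in a library, the neighbours and MECOM. Of each other list, the rule names up to 4 genes past 2-fold or otherwise up to 2 of the most abundant. HDAC1, HELLS, KRT8, KRT18, CUL2, SS18, PTPRC, CTCFL and the neighbours shown were chosen after values were seen, outside or within that rule. A neighbour of the MAGEC genes is not reported here. Members and lists were chosen with earlier results of these data known. Of the 75 member rows, 59 matched RefSeq and 52 its promoter table by symbol. Shared windows of 50 bases come from GENCODE transcripts of the member genes alone, of a later build, so no hg19 coordinates are printed. Alternatives were library totals, DESeq2 1.42.0 size factors, upper-quartile factors, TPM, lower count limits and copies not summed.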

Additional observations from a re-analysis of the deposited data

How the results depend on the processing

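No paired analysis was possible because each construct has 1 library, and no library could be left out. Under library totals, DESeq2 size factors, upper-quartile factors, TPM and copies not summed, the 6 counts of members past 2-fold stayed within 1.5 times. No called ratio changed sign under another scaling or with TPM, but with copies not summed MAGEA9 was at 1.03 with EVI1-WT and 1.47 with EVI1+18, where the sum with MAGEA9B was at 0.388 and 0.554. Of the 21 members from a mean of 10 counts, 8 were lower with EVI1-WT (5 of 17 from a mean of 50), where 4.03% of all 11939 genes at that limit were. Between the EVI1 libraries 2 of the 21 were higher and 2 lower with EVI1+18 (1 and 1), where 3.01% and 0.804% of those genes were. CTAG2 and SSX3 reach that mean through the empty vector library alone, so their place among the lower was fixed by the limit. With all members of at least 1 count in each library compared, 9 of 25 were lower with EVI1-WT and 8 of 28 with EVI1+18 (4 of 17 from a mean of 50). Between the EVI1 libraries 3 of 25 were higher and 4 lower. The share over all genes was not taken at this limit, so these counts have no background to be set against. More members enter under these limits, and those few counts carry wide intervals. Single ratios shifted by at most 1.03-fold with the other count scalings and by up to 1.44-fold with TPM, where the median of all genes was -0.07 and -0.10 on the log2 scale with EVI1-WT and EVI1+18. Depth limits CTAG2, SSX3, SSX4 and MAGEA8, and the absence of replicates limits every ratio.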

Other observations

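Cancer-testis antigen genes outside these families also included some that were lower with EVI1. Of 70 such genes, 31 were at 0 in every library and 16 had a mean of at least 50 counts. With EVI1-WT 3 of the 16 were lower past 2-fold and 0 higher, and with EVI1+18 2 were lower and 0 higher, where 1.70% and 0.827% of all 10403 described genes were lower, at median log2 ratios of -0.02 and -0.18. CT55 had 400 counts with the empty vector, 103 with EVI1-WT and 343 with EVI1+18, so it was lowest with EVI1-WT, 3.93-fold below the empty vector, and 1.34-fold below it with EVI1+18 (ratio 0.748, interval 0.646 to 0.866). DDX53, a helicase gene, had 105, 45 and 105 counts, 2.36-fold lower with EVI1-WT and at 0.873 with EVI1+18 (0.659 to 1.15). PASD1 had 167, 65 and 34 counts, 2.60-fold lower with EVI1-WT and 5.63-fold lower with EVI1+18. VCX3A, of a family that shares reads among its copies, had 179, 91 and 66 counts, and was 3.11-fold lower with EVI1+18. CTCFL, the germ line paralogue of CTCF, was abundant at 4761, 5491 and 6065 counts and stood at 1.14 and 1.11.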
